A study of Homo sapiens with 42 samples.

Results

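The comparison set H460 cells 8 h after 2 Gy of gamma radiation against H460 cells at 0 h. It was defined by the array titles and used 3 arrays at 8 h and 6 at 0 h, which is 9 of the 42 arrays of the series, and it covered 18404 genes with 1 entry per gene symbol. H460 is a large-cell lung carcinoma line that the study calls radiosensitive, and the second line of the series, H1299, is a non-small cell lung carcinoma line that it calls radioresistant. Both lines grew as monolayers in serum-containing medium and were irradiated in exponential growth, and total RNA was hybridised to 1-colour whole-transcript Affymetrix arrays, which gave log2 levels. For H460 the titles give 6 arrays at 0 h and 3 each at 2, 4, 8, 12 and 24 h, and H1299 has the same numbers. By title, arrays that share a group are biological replicates. No array is titled as unirradiated at 8 h, so 8 h after irradiation and 8 h more in culture cannot be told apart. The protocol mentions unirradiated cells kept for the same periods, and whether such cells are among the 0 h arrays is not given in the sources used here.

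As background, ionizing radiation breaks both strands of DNA, and the kinase ATM then stabilises p53, a transcription factor whose targets halt the cell cycle, repair DNA, limit p53 itself or kill the cell. The arrest reaches transcription in several ways. The p53 target p21 (CDKN1A) blocks cyclin-dependent kinases, RB-family proteins then hold back E2F, which drives genes of S-phase entry and DNA replication, and the DREAM complex holds back genes of mitosis through CHR elements in their promoters. Cells already past the G1 block go on into S and G2, where the checkpoint holds them before mitosis.

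The tissue label was checked against markers first. Of the epithelial keratins, 3 were far above the median gene in H460, with KRT8 at 12.18 ± 0.16, KRT18 at 12.18 ± 0.23 and KRT19 at 11.36 ± 0.23 (log2 level, SD, n = 6 at 0 h), while KRT7 was near it at 6.73 ± 0.18. VIM, the mesenchymal filament protein vimentin, was at 11.25 ± 0.12, about as high as KRT19. EPCAM at 3.97 and CDH1 at 3.78 lay far below the median gene, 6.09, so these 2 defining genes of epithelium gave no such sign. Of the listed markers of other cell types, 10 of 12 fibroblast genes and 12 of 13 genes of the leukocyte list lay below the median gene. The leukocyte list also holds HBB, a gene of red blood cells, which was below it. Above it lay COL1A1 (6.72), COL3A1 (6.13) and, from the leukocyte list, CD68 (8.78). The mean level of the fibroblast list was 4.47 to 4.64 over the 0 h arrays and 4.35 to 4.43 over the 8 h arrays, and that of the leukocyte list 4.28 to 4.59 and 4.32 to 4.38. Here and in all that follows, fewer cells with a transcript and less of it per cell cannot be told apart.

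One property of the arrays moved with the comparison and touches every count. The interquartile range of the gene levels, called array width here, was 3.34 ± 0.17 (SD, n = 6; 3.14 to 3.63) at 0 h and 3.64 ± 0.02 (n = 3) at 8 h. Only 0 h replicate 6, at 3.63, was as wide as the 8 h arrays. The H460 arrays at 4 h had a mean width of 3.35, near that at 0 h, and those at 12 h one of 3.67, near that at 8 h. A wider array moves high genes up and low genes down: the median change at 8 h was -0.14 in the third of genes with the lowest level at 0 h and 0.13 in the third with the highest, and after quantile normalization, which gives all arrays 1 distribution, these medians were -0.02 and -0.01. What made the arrays differ in width was not tested. Counts of the gene lists for 8 h against 0 h in H460 are therefore given on the deposited values, after quantile normalization and with array width as a covariate. Of the 127 genes named in the results, 70 lost their call in this last model, in which width and time overlap.

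At 8 h, 3108 of 18404 genes were called by limma at an adjusted p under 0.05 (16.9%). Of these, 1963 were higher (10.7%) and 1145 lower (6.22%), and all 8 h arrays lay above all 0 h arrays for 2426 genes (13.2%) and below them for 1522 (8.27%). Changes were mostly small. A called change of at least 2-fold was reached by 44 genes upward and 6 downward, and the median over all genes was -0.03 (log2). After quantile normalization 1974 genes were called (10.7%), 1131 higher (6.15%) and 843 lower (4.58%), and 1518 calls were shared with the deposited values in the same direction. With array width in the model 132 genes were called (0.717%), 73 higher (0.397%) and 59 lower (0.321%), and 127 of these were also called without it in the same direction.

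**Figure D1:**
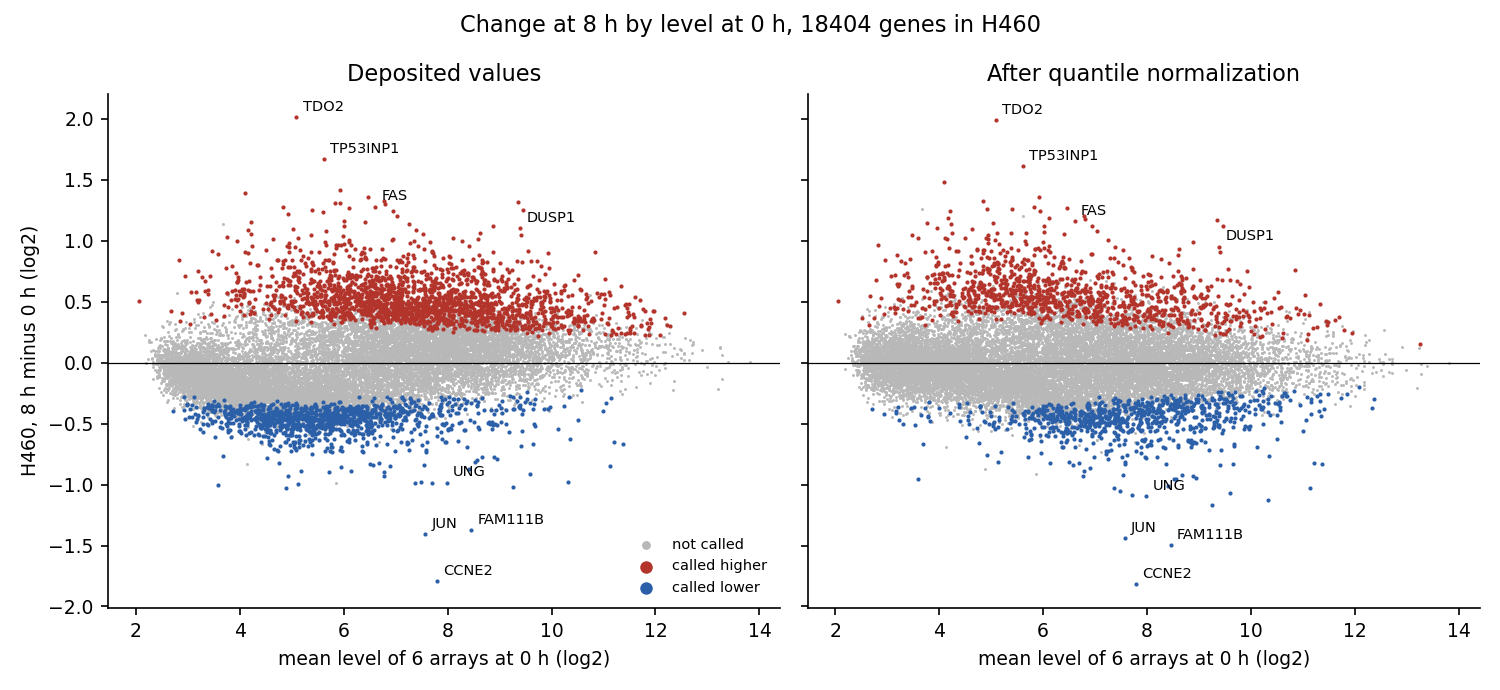
Each of 18404 genes by its mean level at 0 h (x, log2) and its change from 0 h to 8 h in H460 (y, log2), on the deposited values (left) and after quantile normalization (right); red and blue mark genes called higher (1963 and 1131) and lower (1145 and 843). On the left most called high genes lie above 0 and most called low genes below it, and TDO2, TP53INP1, FAS and DUSP1 at the top and CCNE2, JUN, FAM111B and UNG at the bottom are called on both sides.

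Targets of p53 rose far more often than they fell. Of 51 measured targets, 35 rose and 2 fell, where 10.7% and 6.22% of all genes did, with a median change of 0.56 against -0.03 for all genes (the list was drawn up with results of these data known). After quantile normalization the counts were 30 and 3 (median 0.46), and with array width in the model 17 and 0 (median 0.40). Against 0 h replicate 6 alone, the array as wide as those at 8 h, the median was 0.39. The falling targets numbered 0 without 8 h replicate 1, 2 or 3 and 1 without 0 h replicate 3 or 4.

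Among the targets that arrest the cycle, 4 of 7 rose and 1 fell. CDKN1A, the p21 inhibitor of cyclin-dependent kinases, lay at 7.16 to 7.49 (median 7.38) at 0 h and 8.21, 8.41 and 8.46 at 8 h. All 8 h arrays thus lay above all 0 h arrays, and the change of 1.0 ± 0.13, adjusted p = 1.66e-05, was 2.00-fold. This level was below that at 4 h (-0.62, adjusted p = 0.016, 8 h minus 4 h), the time of its highest mean. PLK2 and PLK3, stress-activated Polo-like kinases, rose by 0.44 ± 0.12 and 0.67 ± 0.11 (adjusted p = 0.0172 and 3.52e-04), and ZMAT3, an RNA-binding zinc finger protein, by 0.56 ± 0.12 (adjusted p = 0.00447). PLK2 was not called after quantile normalization (0.28, adjusted p = 0.0823). GADD45A, a growth arrest gene, did not pass the test (0.29 ± 0.10, adjusted p = 0.0532), nor did SFN (14-3-3 sigma, which holds back CDC25 and cyclin B), at -0.23 ± 0.11, adjusted p = 0.127, which was called lower after quantile normalization (-0.39, adjusted p = 0.0353). E2F7, a repressor of E2F targets that p53 can induce, went the other way: it lay at 8.31 to 8.70 (median 8.59) at 0 h and 8.15, 8.27 and 8.21 at 8 h, a change of -0.35 ± 0.10, adjusted p = 0.0213, and it was also lower than at 4 h (-0.74, adjusted p = 0.00165). Once array width entered the model, 1 of these 5 called genes was called (CDKN1A). Leave-out of 1 array ended the calls of PLK2 without 8 h replicate 1, 2 or 3 (highest adjusted p = 0.0873) and E2F7 without 8 h replicate 1, 2 or 3 (highest adjusted p = 0.107).

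Genes that feed back on p53 rose in 4 of 6 cases. TP53INP1, a cofactor that promotes p53 phosphorylation and autophagy, had the second largest rise of all named genes: 5.25 to 5.83 (median 5.67) at 0 h and 7.32, 7.26 and 7.27 at 8 h, a change of 1.67 ± 0.12, adjusted p = 1.39e-09 (3.18-fold). The 8 h arrays lay far above the 0 h arrays. The rise held with array width in the model (1.62, adjusted p = 9.66e-07). MDM2, the ubiquitin ligase that degrades p53, stood at 9.60 to 10.13 (median 9.75) at 0 h and 10.68, 10.60 and 10.46 at 8 h, which gave 0.79 ± 0.11, adjusted p = 3.45e-05. Replicate 1 was the highest 0 h array for MDM2 and still lay below all 8 h arrays. CCNG1 (cyclin G1) rose by 0.77 ± 0.12 and PPM1D, the phosphatase that switches the damage signal off, by 0.52 ± 0.10 (adjusted p = 1.65e-04 and 0.00114). Of the 4 called genes named here, 2 were called with array width in the model (TP53INP1 and MDM2).

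Death genes gave both signs. Of 15 measured, 7 rose and 1 fell. FAS, a death receptor, gave 6.50 to 6.72 (median 6.61) at 0 h and 7.91, 7.83 and 7.93 at 8 h, a change of 1.28 ± 0.09, adjusted p = 1.39e-09, and both groups were tight and far apart. EDA2R, a receptor of the same family, rose by 1.16 ± 0.11 (adjusted p = 1.60e-07), with arrays at 6.17 to 6.59 at 0 h and at 7.41 to 7.68 at 8 h. SPATA18, which takes part in the clearance of damaged mitochondria, rose by 1.22 ± 0.15 (adjusted p = 1.15e-05) and was higher than at 4 h (0.68, adjusted p = 0.0228, 8 h minus 4 h). TP53I3, an oxidoreductase, rose by 0.73 ± 0.09, TNFRSF10B, the TRAIL receptor DR5, by 0.43 ± 0.09, and PMAIP1 (NOXA), a BH3-only protein, by 0.61 ± 0.12 (adjusted p = 1.31e-05, 0.00357 and 0.00151). TRIAP1, which restrains apoptosis, rose by 0.44 ± 0.12 (adjusted p = 0.0197) and was not called after quantile normalization (0.30, adjusted p = 0.145). The other TRAIL receptor that signals death, TNFRSF10A (DR4), fell by 0.33 (adjusted p = 0.0293). No call was made for the mitochondrial death genes BAX (-0.12 ± 0.11, adjusted p = 0.458) and BBC3, also called PUMA (-0.18 ± 0.11, adjusted p = 0.243), or for PERP (-0.13 ± 0.10, adjusted p = 0.348). BAX levels, for example, overlapped between the groups: 8.50 to 8.92 (median 8.77) at 0 h and 8.61, 8.58 and 8.71 at 8 h. The model with array width called 4 of these 8 genes (FAS, EDA2R, SPATA18 and TP53I3). Left-out arrays ended the calls of TRIAP1 without 8 h replicate 1, 2 or 3 (highest adjusted p = 0.0895) and TNFRSF10A without 0 h replicate 3 or 4 or 8 h replicate 1, 2 or 3 (highest adjusted p = 0.137).

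Repair genes rose in 6 of 7 cases. DDB2 and XPC find lesions for nucleotide excision repair, and DDB2 stood at 7.58 to 8.10 (median 7.96) at 0 h and 8.69, 8.84 and 8.79 at 8 h (0.86 ± 0.10, adjusted p = 5.13e-06). XPC rose by 0.60 ± 0.11 (adjusted p = 6.90e-04). POLH, the polymerase that copies past ultraviolet lesions, rose by 1.03 ± 0.12 (adjusted p = 5.13e-06), and FBXO22, a ubiquitin ligase subunit, by 0.74 ± 0.10 (adjusted p = 3.20e-05). RRM2B, the p53-induced subunit of ribonucleotide reductase, rose by 0.66 ± 0.20 (adjusted p = 0.0244), with a wide 0 h range of 6.67 to 7.91. After quantile normalization RRM2B was not called (0.54, adjusted p = 0.109). All 6 measured targets of metabolism and redox control rose (median 0.84). Among them the sestrins, which restrain mTORC1 and oxidants, changed by 1.27 ± 0.16 (SESN1, adjusted p = 1.28e-05) and 0.69 ± 0.11 (SESN2, adjusted p = 1.81e-04). TIGAR, which lowers glycolytic flux, rose by 1.14 ± 0.26 (adjusted p = 0.00463) and CMBL, a hydrolase, by 1.0 ± 0.13 (adjusted p = 2.29e-05). Of the remaining 10 targets 8 rose, led by RPS27L, a ribosomal protein paralogue (5.35 to 6.54, median 5.76, at 0 h and 7.19, 7.16 and 7.07 at 8 h), and GDF15, a secreted stress cytokine (6.62 to 7.09, median 6.71, at 0 h and 8.08, 7.99 and 8.23 at 8 h). For RPS27L the highest 0 h value came from replicate 6, and the gene was not called with array width in the model (0.81, adjusted p = 0.102), whereas GDF15 was (0.99, adjusted p = 0.017). CYFIP2, a regulator of actin, and PLXNB2, a semaphorin receptor, rose by 0.87 ± 0.10 and 0.96 ± 0.12 (adjusted p = 2.43e-06 and 1.15e-05). Once array width entered the model, 9 of these 13 called genes were called (DDB2, POLH, FBXO22, SESN1, SESN2, CMBL, GDF15, CYFIP2 and PLXNB2). Leave-out of 1 array ended the call of RRM2B without 0 h replicate 2 or 5 or 8 h replicate 1, 2 or 3 (highest adjusted p = 0.0887).

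The targets were next compared between 4 h and 8 h. In H460, 1126 of all genes differed between these times (6.12%), 685 higher (3.72%) and 441 lower at 8 h (2.4%), a split that turned to 219 higher and 253 lower after quantile normalization. With array width in the model 12 genes differed, 6 higher and 6 lower. Single genes and lists are compared with 4 h on the deposited values only. Among the p53 targets 2 were higher than at 4 h and 4 lower. The higher ones were SPATA18 and CCNG1 (0.48, adjusted p = 0.0377), and the lower ones included CDKN1A, E2F7, TNFRSF10A (-0.42, adjusted p = 0.0377) and SFN (-0.48, adjusted p = 0.0267).

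**Figure D2:**
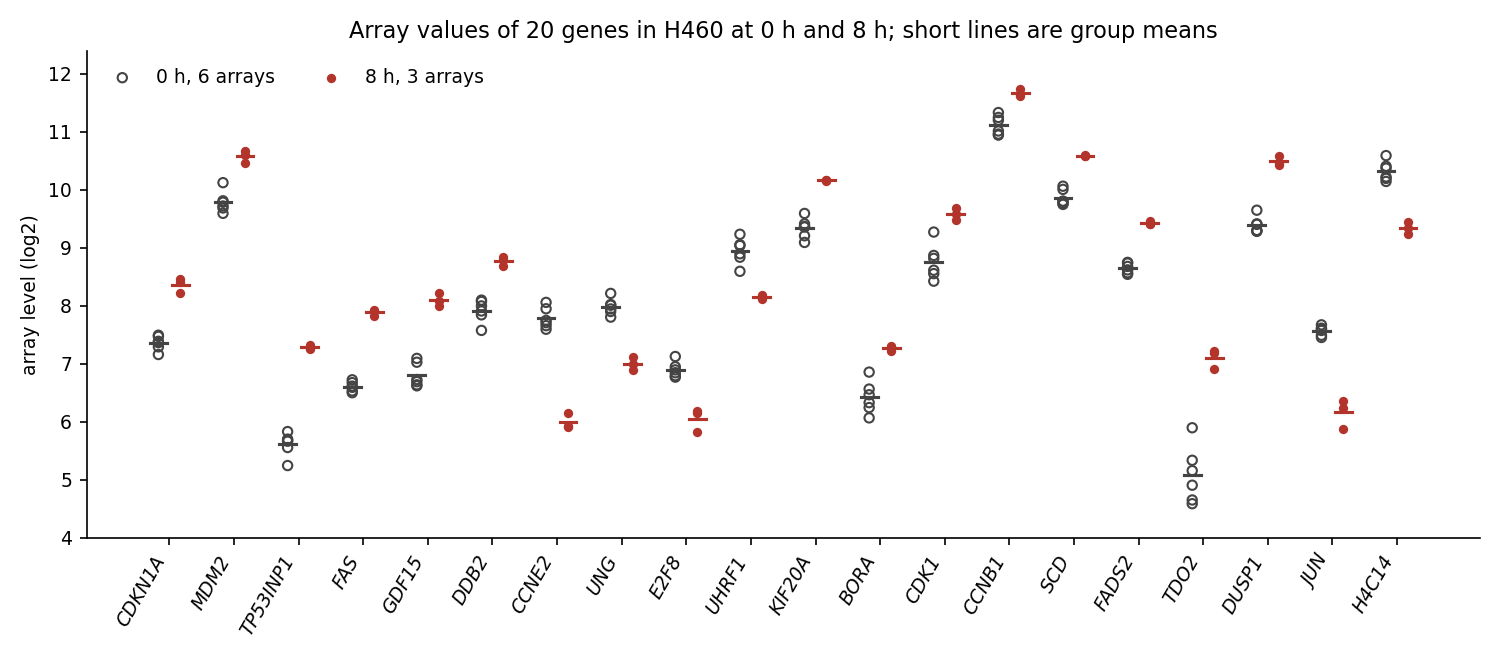
Levels (y, log2) of 20 genes in each H460 array at 0 h (open circles, 6 arrays) and 8 h (filled red circles, 3 arrays), with group means as short lines. For each gene shown the 8 h arrays lie outside the range of the 0 h arrays, above it for example for TP53INP1 (1.67 log2 units between the means) and below it for CCNE2 (-1.79).

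Genes of S-phase entry and DNA replication fell more often than they rose. Of 53 measured, 18 fell and 1 rose, where 6.22% and 10.7% of all genes did (median -0.22). Other scalings gave 32 lower and 0 higher after quantile normalization (median -0.37), 11 lower with array width in the model (median -0.42) and a median of -0.42 against 0 h replicate 6 alone. The median level of the members at 0 h was 8.79. The falling members numbered 11 without 8 h replicate 2.

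These genes are known E2F targets, so the 300-base promoters that RefSeq gives for them (GRCh38.p14, 250 bases before to 50 after the start, 1 per symbol) were searched on both strands for the E2F letters TTTGGCGC and the variant TTTCCCGC. Promoters were matched for 45 of 53 members. The first was found in 9 of them (20%) and in 0.659% of 27305 promoters, and the variant in 11 (24.4%) and in 1.66%. The promoters below are those of the member with the smallest p that holds each, in lower case with the match in capitals. CDC25A, the phosphatase that activates CDK2 (chr3:48188368-48188667, minus strand), holds 1 match that begins 44 bases before the start, and UHRF1, which keeps DNA methylation through replication (chr19:4909251-4909550, plus strand), holds the variant, on the opposite strand, 14 bases before it.
CDC25A: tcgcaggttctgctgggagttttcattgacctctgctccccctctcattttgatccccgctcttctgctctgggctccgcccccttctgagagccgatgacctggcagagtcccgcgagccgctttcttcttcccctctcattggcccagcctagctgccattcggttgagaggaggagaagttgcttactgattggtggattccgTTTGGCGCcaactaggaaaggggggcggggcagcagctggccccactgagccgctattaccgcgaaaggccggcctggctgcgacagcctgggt
UHRF1: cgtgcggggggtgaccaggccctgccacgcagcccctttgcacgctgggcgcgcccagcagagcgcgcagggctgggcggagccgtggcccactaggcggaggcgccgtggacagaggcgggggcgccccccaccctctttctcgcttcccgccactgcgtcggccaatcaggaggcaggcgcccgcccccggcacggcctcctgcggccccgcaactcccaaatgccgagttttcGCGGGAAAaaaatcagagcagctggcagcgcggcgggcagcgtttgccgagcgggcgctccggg
A match is a run of letters and not a measured binding site. The median change was -0.25 for members with TTTGGCGC and -0.18 for those without, and for TTTCCCGC the order was the opposite, -0.18 with it and -0.21 without.

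The cyclins and E2F factors at the G1/S boundary held the largest fall of a named gene, and 5 of 8 fell and 0 rose. CCNE2, an E cyclin that activates CDK2, lay at 7.60 to 8.06 (median 7.73) at 0 h and 5.91, 6.15 and 5.92 at 8 h. The groups did not come near each other, and the change was -1.79 ± 0.15, adjusted p = 1.84e-08, a level 3.47-fold lower. It was also lower than at 4 h (-0.99, adjusted p = 0.00206), and with array width in the model it was -2.16, adjusted p = 6.24e-08. CCNE1, the other E cyclin, fell by 0.72 ± 0.14 (adjusted p = 0.00187). CDC25A fell by 0.41 (adjusted p = 0.00412). E2F8, a repressor that is itself an E2F target, lay at 6.77 to 7.13 (median 6.87) at 0 h and 6.18, 5.83 and 6.14 at 8 h, a change of -0.85 ± 0.11, adjusted p = 3.47e-05. E2F2, an activator, changed by -0.43 ± 0.12, adjusted p = 0.0141. Of the 5 called genes named here, 4 were called with array width in the model (CCNE2, CCNE1, CDC25A and E2F8). Dropping a single array ended the call of E2F2 without 8 h replicate 2 (adjusted p = 0.0933).

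Origin licensing genes fell in 6 of 11 cases. MCM5, a subunit of the replicative helicase, stood at 9.51 to 9.76 (median 9.67) at 0 h and 9.14, 9.15 and 9.19 at 8 h (-0.51 ± 0.08, adjusted p = 3.53e-04), and the subunits MCM2 and MCM4 changed by -0.49 ± 0.11 and -0.35 ± 0.09 (adjusted p = 0.00483 and 0.00847). The loading factors CDC6 and CDT1 changed by -0.54 ± 0.16 and -0.36 ± 0.11, and MCM10, which starts the helicase, by -0.42 ± 0.14 (adjusted p = 0.0222, 0.0274 and 0.038). Of the fork genes 2 of 22 were lower: POLD3, a subunit of DNA polymerase delta (-0.58 ± 0.14, adjusted p = 0.00731), and the flap nuclease FEN1 (-0.37 ± 0.09, adjusted p = 0.0088). On the deposited values this share was near the 6.22% of all genes that fell. After quantile normalization 10 fork genes were lower, and 2 with array width in the model. The only riser of the list was PCNA, the sliding clamp and also a p53 target, at 10.05 to 10.81 (median 10.35) at 0 h and 10.77, 10.73 and 10.70 at 8 h (0.39 ± 0.12, adjusted p = 0.0241). Its highest 0 h array, replicate 6, lay above all 8 h arrays, and PCNA was not called after quantile normalization (0.25, adjusted p = 0.116). The model with array width called 3 of these 9 genes (MCM5, CDC6 and POLD3). Left-out arrays ended the calls of MCM4 without 8 h replicate 2 (adjusted p = 0.0611), CDC6 without 8 h replicate 1, 2 or 3 (highest adjusted p = 0.0762), CDT1 without 8 h replicate 1, 2 or 3 (highest adjusted p = 0.112), MCM10 without 0 h replicate 1, 3 or 4 or 8 h replicate 1, 2 or 3 (highest adjusted p = 0.117) and PCNA without 0 h replicate 4 or 8 h replicate 1, 2 or 3 (highest adjusted p = 0.102).

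In nucleotide supply 2 of 6 fell. UNG, which removes uracil from DNA, lay at 7.81 to 8.22 (median 7.98) at 0 h and 6.99, 7.12 and 6.89 at 8 h, a change of -0.98 ± 0.11, adjusted p = 1.72e-06, which held with array width in the model (-1.21, adjusted p = 2.90e-06). TK1, thymidine kinase, changed by -0.36 ± 0.10, adjusted p = 0.0207. In chromatin assembly 3 of 6 fell. UHRF1 was at 8.60 to 9.24 (median 8.97) at 0 h and 8.16, 8.19 and 8.12 at 8 h (-0.79 ± 0.12, adjusted p = 1.16e-04), and CHAF1A and CHAF1B, subunits of the histone chaperone CAF-1, changed by -0.49 ± 0.09 and -0.51 ± 0.13 (adjusted p = 0.00136 and 0.00982). Outside the list, FAM111B, a protease gene whose transcript is periodic in the cell cycle, had the third largest fall of the genes meeting the naming conditions: 8.29 to 8.58 (median 8.49) at 0 h and 7.08, 7.25 and 6.91 at 8 h, a change of -1.38 ± 0.12, adjusted p = 2.57e-08. CDCA4, a regulator of E2F, changed by -0.91 ± 0.11, adjusted p = 1.28e-05. Against 4 h, 9 members of the list were lower and 0 higher at 8 h. Once array width entered the model, 5 of these 7 called genes were called (UNG, UHRF1, CHAF1B, FAM111B and CDCA4). Leave-out of 1 array ended the calls of TK1 without 8 h replicate 1, 2 or 3 (highest adjusted p = 0.123) and CHAF1B without 8 h replicate 2 (adjusted p = 0.0616).

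Genes of G2 and mitosis gave calls in the opposite direction. Of 62 measured, 28 rose and 0 fell, where 10.7% and 6.22% of all genes did (median 0.31). The count fell with each scaling: after quantile normalization 14 were higher and 2 lower (median 0.17), and with array width in the model 1 was higher (median 0.09). Against 0 h replicate 6 alone the median was 0.14. The rising members numbered 12 without 8 h replicate 1, 15 without 8 h replicate 2, 17 without 8 h replicate 3 and 18 without 0 h replicate 5.

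Their promoters often carry a CHR element and CCAAT boxes, known sites of the DREAM and NF-Y complexes. TTTGAA, the CHR letters, was found on either strand in 37 of 52 matched promoters (71.2%) and in 15.4% of all 27305. The variant TTCGAA was in 5 (9.62%) and 1.45%, and CCAAT in 39 (75%) and 35.7%. Sites of different motifs may overlap. The promoter of BORA (chr13:72727673-72727972, plus strand), an activator of Aurora A and PLK1, is shown with TTTGAA in capitals, which begins 177 bases before the start, and it also holds the variant 124 bases before it. That of KIF20A (chr5:138178862-138179161, plus strand), a kinesin of cytokinesis, is shown with its 2 CCAAT boxes, both on the opposite strand, in capitals.
BORA: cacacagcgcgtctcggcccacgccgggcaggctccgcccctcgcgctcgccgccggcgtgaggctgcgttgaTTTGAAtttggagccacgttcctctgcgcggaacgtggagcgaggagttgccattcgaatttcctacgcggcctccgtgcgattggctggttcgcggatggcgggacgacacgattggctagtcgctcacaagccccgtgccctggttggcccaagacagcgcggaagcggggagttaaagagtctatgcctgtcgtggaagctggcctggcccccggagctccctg
KIF20A: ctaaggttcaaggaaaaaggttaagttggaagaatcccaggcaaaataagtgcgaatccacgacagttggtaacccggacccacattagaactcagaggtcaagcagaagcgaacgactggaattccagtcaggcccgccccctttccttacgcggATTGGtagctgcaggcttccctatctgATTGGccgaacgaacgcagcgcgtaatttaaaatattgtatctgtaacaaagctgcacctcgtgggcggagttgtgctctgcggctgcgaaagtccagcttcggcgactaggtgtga
Members with TTTGAA had a median change of 0.27 and those without 0.52. For TTCGAA the medians were 0.58 with it and 0.31 without, and for CCAAT 0.31 and 0.42.

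Kinases and cyclins of mitotic entry rose in 8 of 15 cases. CDK1, the kinase that drives mitosis, stood at 8.43 to 9.27 (median 8.72) at 0 h and 9.69, 9.48 and 9.59 at 8 h (0.83 ± 0.15, adjusted p = 9.52e-04), and its partner CCNB1 at 10.94 to 11.33 (median 11.11) at 0 h and 11.74, 11.62 and 11.65 at 8 h (0.55 ± 0.10, adjusted p = 0.0011). CDC25C, the phosphatase that activates CDK1, changed by 0.68 ± 0.10, adjusted p = 1.60e-04, and BORA by 0.85 ± 0.13, adjusted p = 2.17e-04, with 0 h levels of 6.07 to 6.86 and 8 h levels of 7.23 to 7.30. In each of these 4 genes the highest 0 h value was that of replicate 6, below all 8 h arrays. AURKA, the Aurora A kinase, rose by 0.49 ± 0.11, NEK2, a centrosome kinase, by 0.60 ± 0.11, and TTK, a spindle checkpoint kinase, by 0.69 ± 0.19 (adjusted p = 0.00382, 0.00112 and 0.0141). TTK was not called after quantile normalization (0.55, adjusted p = 0.054). None of the 7 called genes named here was called with array width in the model. Dropping a single array ended the call of TTK without 8 h replicate 1 (adjusted p = 0.0741).

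Of the kinetochore and checkpoint genes 8 of 14 rose, among them BUB1 (0.58 ± 0.12, adjusted p = 0.00259). Of the kinesins and spindle genes 6 of 14 rose. KIF20A, at 9.09 to 9.59 (median 9.36) at 0 h and 10.18, 10.16 and 10.18 at 8 h (0.83 ± 0.11, adjusted p = 3.45e-05), was the member of the whole list called with array width in the model (0.54, adjusted p = 0.044), and ASPM, a spindle pole protein, rose by 0.68 ± 0.15 (adjusted p = 0.00439). Condensation and cohesion gave 3 of 10, with PTTG1 (securin) at 0.57 ± 0.10, adjusted p = 5.72e-04, and TOP2A (topoisomerase II alpha) at 0.36 ± 0.10, adjusted p = 0.0182, which was not called after quantile normalization (0.23, adjusted p = 0.0723), and cytokinesis and exit 3 of 9, with UBE2C, a ubiquitin-conjugating enzyme of the anaphase complex, at 0.50 ± 0.10, adjusted p = 0.00275. Of 2 mitotic genes outside the list that were among the 15 largest rises, CKS2, a CDK1 subunit, lay at 8.59 to 10.23 (median 9.34) at 0 h and 10.66, 10.66 and 10.68 at 8 h, and CENPW, a centromere protein, at 5.96 to 7.40 (median 6.35) at 0 h and 7.79, 7.93 and 7.77 at 8 h. Both had a wide 0 h range with replicate 6 at its top, and neither was called with array width in the model (0.86, adjusted p = 0.213, and 0.89, adjusted p = 0.0821). The model with array width called 1 of these 8 genes (KIF20A). Left-out arrays ended the call of TOP2A without 8 h replicate 1, 2 or 3 (highest adjusted p = 0.0805).

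The mitotic genes were also set against the times on either side. Against 4 h, 17 of 62 members were higher at 8 h and 0 lower (median 0.37). The 4 h arrays were narrower than the 8 h arrays (mean width 3.35 against 3.64). Higher calls over all genes went from 685 to 219 after quantile normalization and to 6 with array width in the model. The mitotic list was not counted against 4 h under those scalings. KIF20A was 0.78, adjusted p = 0.00179, BORA 0.94, adjusted p = 0.00177, CCNB1 0.66, adjusted p = 0.00346 and CDC25C 0.68, adjusted p = 0.00289 (8 h minus 4 h). From 8 h to 12 h, where the arrays were of similar width, 52 of all genes differed (0.283%), 44 of them lower at 12 h (0.239%). Of these, 7 belong to the mitotic list, among them BORA (-0.83, adjusted p = 0.0102), CDC25C (-0.55, adjusted p = 0.0442) and UBE2C (-0.54, adjusted p = 0.0473). The 8 h arrays serve in both comparisons, which are therefore not independent. With 1 of the 8 h or 12 h arrays left out, 23 to 28 of all genes were lower at 12 h in place of 44. The mitotic genes among them were not counted. The mean of BORA was 6.34 ± 0.16 at 4 h, then 7.27 ± 0.04 and, by 12 h, 6.44 ± 0.14 (SD, n = 3 each).

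**Figure D3:**
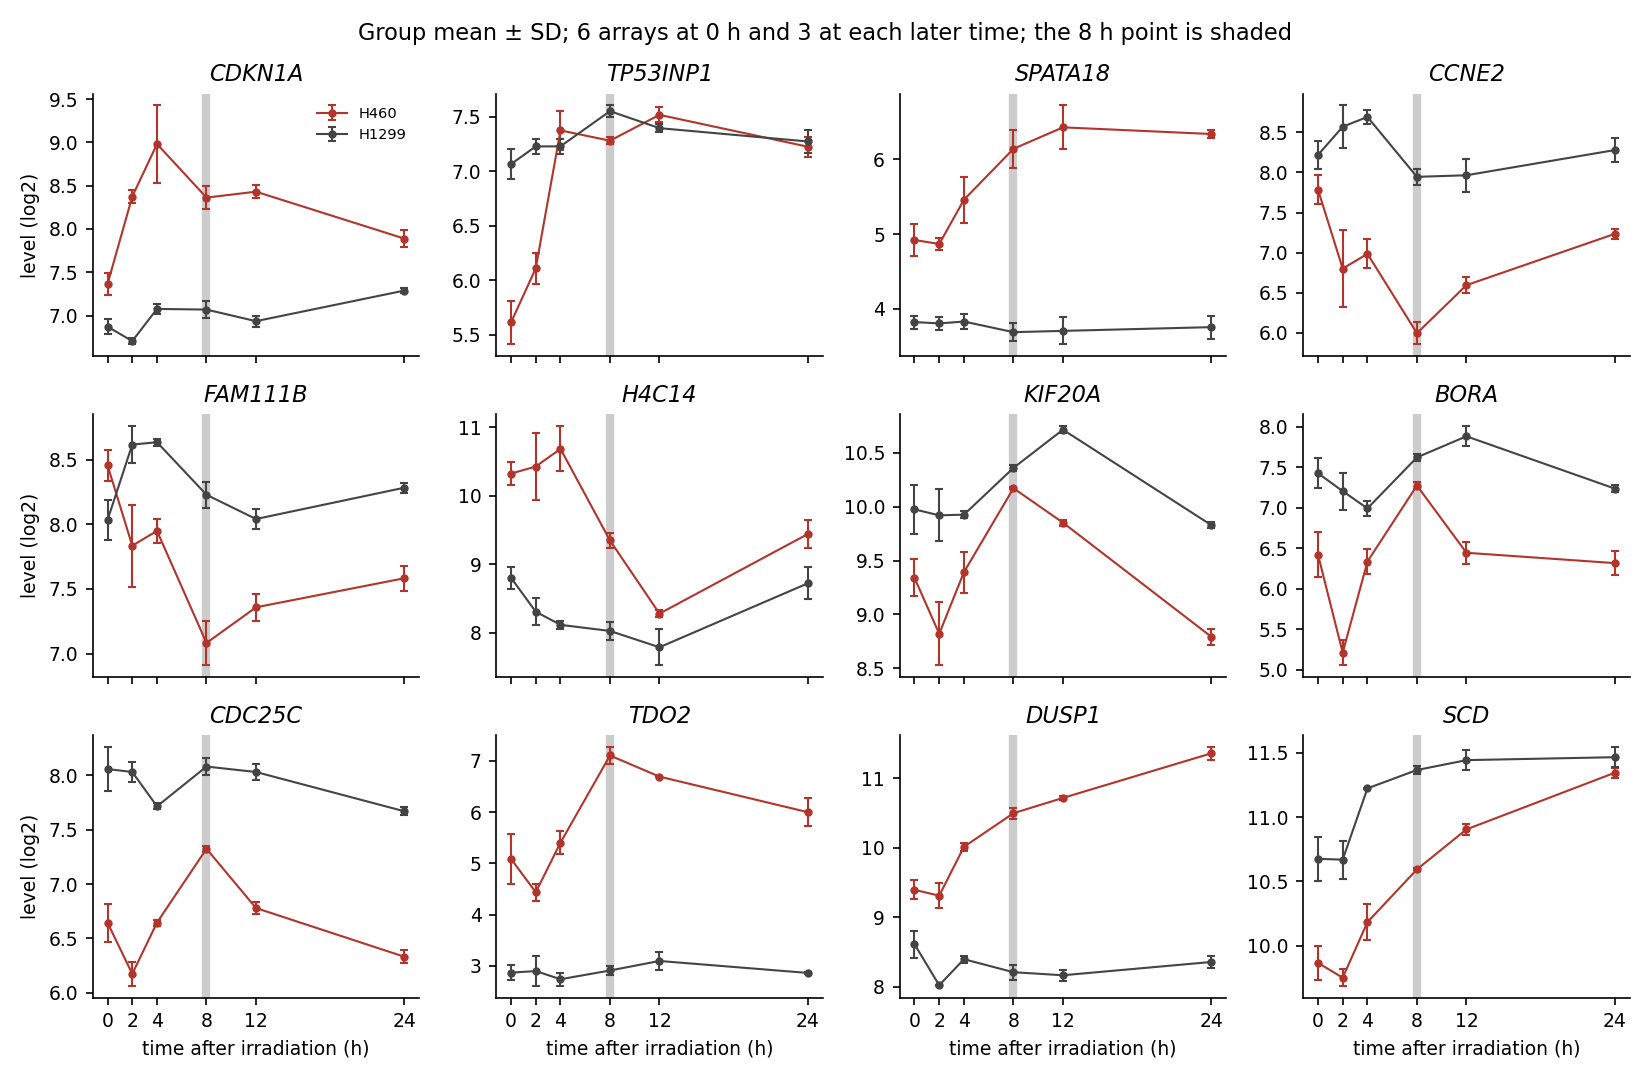
Group means ± SD (y, log2 level) of 12 genes against hours after irradiation (x) in H460 (red) and H1299 (grey), with 6 arrays at 0 h and 3 at each later time; the 8 h point is shaded. In H460, BORA and CDC25C stand highest at 8 h, CCNE2 and FAM111B lowest, CDKN1A is past its highest mean at 4 h, and DUSP1 and SCD are still below their 24 h levels.

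Replication-dependent histone genes, which are transcribed in S phase, fell more often than they rose. Of 45 measured, 7 fell and 1 rose at 8 h, where 6.22% and 10.7% of all genes did (median -0.07). After quantile normalization 8 were lower, and with array width in the model none was called (median -0.26). The falling members numbered 4 without 8 h replicate 1 or 2. H4C14 was at 10.15 to 10.59 (median 10.30) at 0 h and 9.35, 9.24 and 9.46 at 8 h (-0.98 ± 0.15, adjusted p = 1.88e-04), with all 8 h arrays lower. H4C2 and H2AC21 changed by -0.56 ± 0.12 and -0.67 ± 0.14 (adjusted p = 0.00309 and 0.0032). The single riser, H2BC12 (0.56 ± 0.17, adjusted p = 0.0236), was chosen for mention after its value was seen, and it was not called after quantile normalization (0.41, adjusted p = 0.0807). At 12 h, 23 of the list were lower than at 8 h and 0 higher, so histones made up 23 of the 44 genes that were lower at 12 h, and the list's median change from 0 h was then -0.91. H4C14 fell by a further 1.07 (adjusted p = 0.00222). With 1 of the 8 h or 12 h arrays left out, 23 to 28 of all genes were lower at 12 h, and the histones among them were not counted. Histone genes are near-identical copies, so single members may share signal. Once array width entered the model, none of these 4 called genes was called. Leave-out of 1 array ended the call of H2BC12 without 0 h replicate 5 or 8 h replicate 1, 2 or 3 (highest adjusted p = 0.0993).

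Lipid synthesis genes, targets of the SREBP factors, rose and did not fall: 22 of 36 rose and 0 fell (median 0.38). Over all genes 10.7% rose and 6.22% fell. After quantile normalization 16 were higher and 1 lower (median 0.29), and with array width in the model 2 higher (median 0.20), namely SCD and FADS2. The rising members numbered 14 without 8 h replicate 1 or 2. SCD, the stearoyl-CoA desaturase, stood at 9.75 to 10.06 (median 9.80) at 0 h and 10.60, 10.59 and 10.59 at 8 h (0.73 ± 0.08, adjusted p = 5.13e-06), and FADS2, which desaturates polyunsaturated fatty acids, at 8.54 to 8.75 (median 8.65) at 0 h and 9.41, 9.42 and 9.46 at 8 h (0.78 ± 0.09, adjusted p = 7.75e-06). The 8 h arrays of both genes lay close together. Fatty acid genes rose in 7 of 9 cases and sterol enzymes in 11 of 16. Along the sterol path, HMGCS1, which makes HMG-CoA, rose by 0.77 ± 0.14, IDI1, the isopentenyl isomerase, by 0.73 ± 0.14, SQLE, the squalene epoxidase, by 0.61 ± 0.11, MSMO1, a methylsterol oxidase, by 1.06 ± 0.22 and NSDHL, a sterol dehydrogenase, by 0.64 ± 0.10 (adjusted p = 0.00109, 0.00179, 9.80e-04, 0.00259 and 2.40e-04). Of the uptake and regulation genes 4 of 11 rose, among them INSIG1, which retains SREBP in the endoplasmic reticulum (0.57 ± 0.12, adjusted p = 0.00333), and LPIN1, a phosphatidate phosphatase (0.69 ± 0.12, adjusted p = 6.42e-04). SREBF2, which encodes SREBP2, was not called (0.19 ± 0.12, adjusted p = 0.266). Against 4 h, 4 members were higher and 0 lower. Of the 9 called genes named here, 2 were called with array width in the model (SCD and FADS2).

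Of 21 immediate-early genes, which growth signals switch on through MAP kinases, 8 were lower and 3 higher. Over all genes 6.22% were lower and 10.7% higher, so the risers were near that share. After quantile normalization 7 were lower and 2 higher, and with array width in the model 4 and 0. The rising immediate-early and feedback genes together numbered 3 without 8 h replicate 2 or 3. JUN, a subunit of AP-1, lay at 7.46 to 7.67 (median 7.59) at 0 h and 5.88, 6.36 and 6.24 at 8 h, a change of -1.41 ± 0.13, adjusted p = 2.28e-07, the second largest fall among the named genes. FOSL1, another AP-1 subunit, changed by -0.88 ± 0.15, adjusted p = 5.20e-04, EGR1, a zinc finger factor, by -0.82 ± 0.13, adjusted p = 2.10e-04 and KLF6, a Krüppel-like factor, by -0.65 ± 0.11, adjusted p = 2.57e-04. KLF11, a relative of KLF6 that is not in the list, changed by -0.93 ± 0.11, adjusted p = 7.21e-06. The feedback phosphatase DUSP1, which inactivates JNK, p38 and ERK, moved the other way: 9.29 to 9.65 (median 9.35) at 0 h and 10.44, 10.47 and 10.58 at 8 h (1.10 ± 0.09, adjusted p = 1.84e-08). Replicate 6 was its highest 0 h array and still lay below all 8 h arrays. DUSP1 and JUN were both called with array width in the model (1.0, adjusted p = 2.82e-05, and -1.54, adjusted p = 2.25e-05). The feedback genes gave 3 higher, DUSP1 included, and 2 lower of 15 (2 and 2 after quantile normalization, 1 and 0 with array width). Targets of YAP, the coactivator of the Hippo pathway, fell in 4 of 11 cases and rose in 0, with ANKRD1, a muscle ankyrin-repeat protein, at -0.90 ± 0.15, adjusted p = 5.20e-04, and CCN2, a matrix protein, at -0.39 ± 0.10, adjusted p = 0.0107. After quantile normalization 5 YAP targets were lower, and 1 with array width. Of the 16 TGF-beta and BMP targets in the same list 3 rose and 1 fell, where 10.7% and 6.22% of all genes did. The falling TGF-beta, BMP and YAP targets together numbered 5, and 3, 1 and 2 without 8 h replicate 1, 2 or 3. The YAP targets were not counted alone with an array left out. The model with array width called 5 of these 8 genes (JUN, KLF6, KLF11, DUSP1 and ANKRD1). Left-out arrays ended the call of CCN2 without 8 h replicate 1 or 2 (highest adjusted p = 0.0587).

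Stress programmes outside p53 gave mixed counts, where 10.7% of all genes rose and 6.22% fell. Of 31 targets of ATF4, the factor of the integrated stress response, 6 rose and 3 fell. The risers were led by DDIT4 (REDD1, an mTORC1 inhibitor), at 8.21 to 9.10 (median 8.57) at 0 h and 9.68, 9.67 and 9.70 at 8 h (1.06 ± 0.15, adjusted p = 4.52e-05), CTH, which makes cysteine (0.99 ± 0.14, adjusted p = 3.89e-05), and CEBPB, a transcription factor (0.77 ± 0.10, adjusted p = 1.66e-05). STC2, a secreted glycoprotein, and PPP1R15A (GADD34), which ends the stress response, fell, by 0.55 and 0.65 (adjusted p = 8.47e-04 and 9.21e-04). Of 26 targets of NRF2, the antioxidant factor, 13 rose, among them the aldo-keto reductases AKR1C3 (0.52 ± 0.08, adjusted p = 2.49e-04) and AKR1B10 (0.57 ± 0.09, adjusted p = 2.57e-04), but after quantile normalization 7 were higher and 1 lower and with array width none was called. The interferon-stimulated genes gave 9 of 38 higher, for example IFI44 (0.84 ± 0.21, adjusted p = 0.0083) and the low-level gene TRIM22 (0.71 ± 0.13, adjusted p = 0.00113), and the NF-kB targets 3 higher and 2 lower of 23, with IL6, an inflammatory cytokine, at 0.83 ± 0.14, adjusted p = 5.23e-04. In the BCL2 family and caspases 6 of 26 rose and 2 fell, with CASP9, the initiator caspase of the mitochondrial path, at 0.52 ± 0.11, adjusted p = 0.00339. Hypoxia and glycolysis genes gave 3 higher and 1 lower of 21, and these counts and those of the NF-kB targets were near the shares of all genes. After quantile normalization the balance changed in several of these lists: 4 higher and 4 lower for ATF4, 1 and 2 for NF-kB, 4 and 4 for the BCL2 family and caspases, 1 and 4 for hypoxia and glycolysis, and 7 and 0 for the interferon list. With array width in the model the interferon list had 1 call, the ATF4 list 4 higher and 2 lower, and the NF-kB, BCL2 and caspase, and hypoxia lists none. The rising NRF2 targets numbered 8 without 8 h replicate 1. The rising interferon-stimulated genes numbered 3 without 8 h replicate 2 and 4 without 8 h replicate 1 or 3. The rising NF-kB targets numbered 1 without 8 h replicate 1 or 2 and 5 without 0 h replicate 6. The falling NF-kB targets numbered 1 without 8 h replicate 1 or 2. The falling BCL2 family and caspase genes numbered 1 without 8 h replicate 1 or 2 and 4 without 0 h replicate 6. The rising hypoxia and glycolysis genes numbered 1 without 0 h replicate 2 or 4 or 8 h replicate 1, 2 or 3 and 5 without 0 h replicate 6. Once array width entered the model, 6 of these 11 called genes were called (DDIT4, CTH, CEBPB, STC2, PPP1R15A and TRIM22). Leave-out of 1 array ended the call of IFI44 without 8 h replicate 1 (adjusted p = 0.0525).

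For genes of the damage response itself the counts depended on scaling. Of 26 double-strand break repair genes 3 rose and 2 fell, shares near those of all genes, with 3 higher and 3 lower after quantile normalization and 0 and 2 with array width. The falling repair genes numbered 0 without 8 h replicate 1, 2 or 3. Of 18 checkpoint genes 1 rose, MDC1, the mediator that binds phosphorylated H2AX (0.42 ± 0.12, adjusted p = 0.0173), and MDC1 was not called after quantile normalization (0.29, adjusted p = 0.0868), where 0 checkpoint genes were higher and 2 lower. With array width none was called. None of 28 genes of ribosome biogenesis was called by limma in either direction on the deposited values, where 1 was higher and 2 lower at an unadjusted p under 0.05, and 3 were called lower after quantile normalization. MDC1 was not called with array width in the model. Dropping a single array ended the call of MDC1 without 8 h replicate 1 or 2 (highest adjusted p = 0.0825).

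Of 19 clock genes 5 were higher and 3 lower, where 10.7% and 6.22% of all genes were. The counts were 4 and 3 after quantile normalization and 1 and 2 with array width. The rising clock genes numbered 3 without 8 h replicate 1, 2 or 3. The falling clock genes numbered 0 without 8 h replicate 3 and 1 without 8 h replicate 1 or 2. PER2, a repressor of the clock, stood at 6.64 to 6.86 (median 6.69) at 0 h and 7.55, 7.67 and 7.5 at 8 h (0.85 ± 0.10, adjusted p = 7.75e-06) and was called under each scaling (0.74, adjusted p = 4.49e-05 after quantile normalization, and 0.72, adjusted p = 0.0049 with array width). RORA, an activator, rose by 0.59 ± 0.13 (adjusted p = 0.0046) and NR1D1 (REV-ERB alpha), a repressor of the same sites, fell by 0.44 (adjusted p = 0.0149). The model with array width called 1 of these 3 genes (PER2). Left-out arrays ended the call of NR1D1 without 8 h replicate 1, 2 or 3 (highest adjusted p = 0.0718).

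Housekeeping genes rose in part, where 10.7% of all genes rose and 6.22% fell, and with them array width has to be read beside the counts. Median levels at 0 h were 9.28 for respiratory chain, 10.2 for proteasome, 11.6 for ribosomal protein and 7.55 for lysosome and autophagy genes. Of 31 nuclear-encoded respiratory chain genes 13 rose (median 0.34), of 28 proteasome genes 12 (median 0.27), of 37 cytosolic ribosomal protein genes 10 (median 0.17) and of 31 lysosome and autophagy genes 10 (median 0.24), and none of these lists had a member that fell. After quantile normalization the risers numbered 8, 4, 1 and 4, with 1 ribosomal protein gene lower, and with array width in the model 0, 0, 0 and 1. The rising respiratory chain genes numbered 8 without 8 h replicate 1, 2 or 3. The rising proteasome genes numbered 3 without 8 h replicate 1, 5 without 8 h replicate 2 and 6 without 8 h replicate 3. The rising ribosomal protein genes numbered 1 without 8 h replicate 1, 3 without 8 h replicate 2, 5 without 8 h replicate 3 and 16 without 0 h replicate 6. The rising lysosome and autophagy genes numbered 3 without 8 h replicate 1, 5 without 8 h replicate 3 and 6 without 8 h replicate 2. COX7B, a subunit of cytochrome oxidase, lay at 6.91 to 7.97 (median 7.30) at 0 h and 8.49, 8.58 and 8.35 at 8 h. The change was 1.09 ± 0.19, adjusted p = 5.33e-04, while against 0 h replicate 6 alone it was 0.50. COX6C, of the same complex, was at 9.74 in replicate 6 and at most 9.01 in the other 0 h arrays, and at 9.77 to 9.88 at 8 h (0.82 ± 0.15, adjusted p = 9.60e-04). PSMB1, a proteasome subunit, had the same arrangement (9.17 to 10.16, median 9.33, at 0 h and 10.25, 10.25 and 10.29 at 8 h; 0.83 ± 0.15, adjusted p = 6.59e-04), as did PSMB3 (0.63 ± 0.09, adjusted p = 7.15e-05). RPL14, a ribosomal protein, overlapped between groups (0.33 ± 0.08, adjusted p = 0.00892) and was not called after quantile normalization (0.16, adjusted p = 0.0872), and NEU1, a lysosomal sialidase, was called with array width in the model (0.51, adjusted p = 0.0382; 0.57 ± 0.09 without it). Once array width entered the model, 1 of these 6 called genes was called (NEU1). Leave-out of 1 array ended the call of RPL14 without 8 h replicate 1 (adjusted p = 0.0565).

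**Figure D4:**
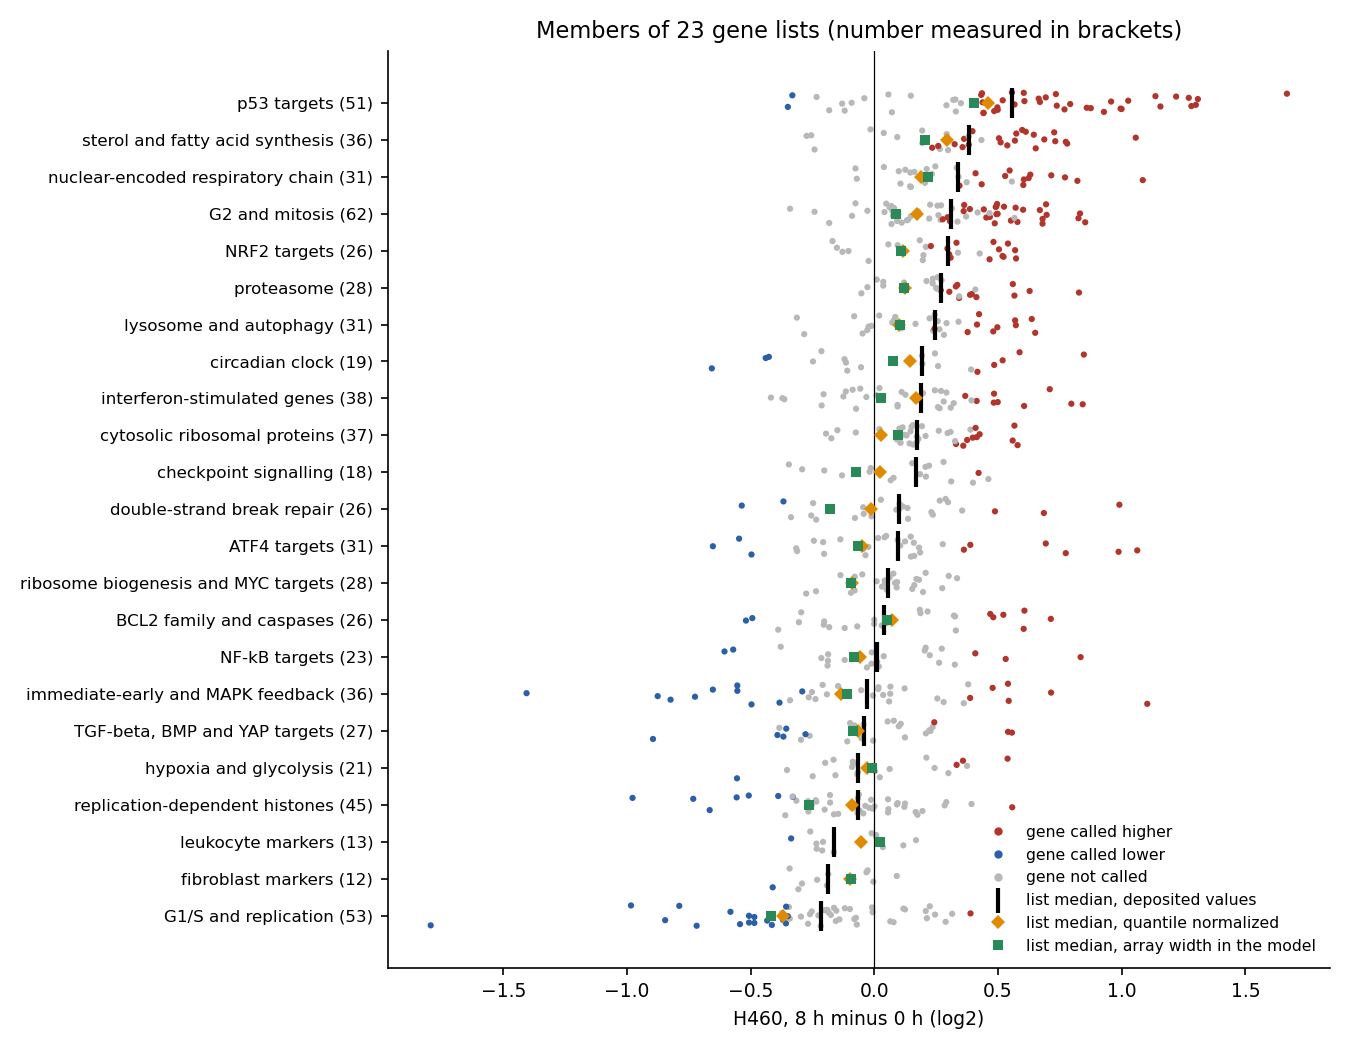
Change from 0 h to 8 h in H460 (x, log2) of each measured member of 23 gene lists (rows, ordered by median), with red for called higher, blue for called lower and grey for not called; the markers give the list median on the deposited values (black line), after quantile normalization (orange) and with array width in the model (green). The p53 targets stay far right of 0 under all 3 (0.56, 0.46 and 0.40) and the G1/S genes left of it, while the median of G2 and mitosis genes shrinks from 0.31 to 0.09.

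Several of the largest changes belonged to no list. TDO2, the enzyme that opens the indole ring of tryptophan, had the largest rise: 4.59 to 5.90 (median 5.03) at 0 h and 7.22, 7.18 and 6.92 at 8 h, a change of 2.02 ± 0.20, adjusted p = 2.93e-07 (4.05-fold). The 0 h arrays were spread, with replicate 6 highest, but all lay below the 8 h arrays, and the change against replicate 6 alone was 1.21. TDO2 was also higher than at 4 h (1.70, adjusted p = 2.92e-04). ACTA2, smooth muscle actin, a gene that neighbours FAS, lay at 6.47 to 7.10 (median 6.79) at 0 h and 8.07, 8.10 and 8.16 at 8 h (1.33 ± 0.13, adjusted p = 6.07e-07). RSRP1, an arginine- and serine-rich protein, changed by 1.42 ± 0.16, adjusted p = 5.10e-06, and GAS6-AS1, an antisense RNA of GAS6, by 1.39 ± 0.18, adjusted p = 1.66e-05. Whether the probes tell GAS6-AS1 from its sense partner was not examined. Among the falls, CES1, a carboxylesterase, changed by -0.99 ± 0.24, adjusted p = 0.00686, with 0 h arrays from 6.98 to 8.32, and the low-level genes SLFN13 and GAST (gastrin) by -1.0 ± 0.15 and -0.93 ± 0.15 (adjusted p = 1.21e-04 and 2.10e-04). Small nucleolar, small nuclear and micro-RNA genes took 3 of the 15 largest rises and 4 of the 15 largest falls. They are not named, since probes of a gene array do not tell a mature small RNA from its host transcript. Of the 7 called genes named here, 4 were called with array width in the model (TDO2, ACTA2, RSRP1 and GAS6-AS1).

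H1299 cells went through the same hours with more calls. There, 4524 genes were called at 8 h (24.6%), 2769 higher (15%) and 1755 lower (9.54%). The 8 h change differed between the lines for 1861 genes (10.1%), 1207 with a higher change in H460 (6.56%) and 654 with a lower one (3.55%). The count was 1917 after quantile normalization and 2530 with array width in the model. Single genes and lists are compared between the lines on the deposited values only. Among the p53 targets 30 of 51 had a higher change in H460 and 2 a lower one. In H1299 14 of the targets were called higher and 8 lower (median 0.07). CDKN1A changed by 0.20 there (difference 0.80, adjusted p = 3.49e-04), MDM2 by 0.36 (difference 0.43, adjusted p = 0.018), GDF15 by -0.19 (difference 1.49, adjusted p = 1.47e-04) and SPATA18 by -0.14 (difference 1.35, adjusted p = 3.76e-06). For PMAIP1, TNFRSF10B and RRM2B the lines were not told apart (differences 0.29, 0.16 and -0.07, adjusted p = 0.252, 0.41 and 0.918).

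In the cell cycle lists fewer members were called different between the lines. Of the 62 mitotic genes 4 had a higher and 3 a lower change in H460, near the 6.56% and 3.55% of all genes. In H1299 41 of the 62 were called higher (median 0.26), where 15% of all genes were. Of the 53 G1/S genes 10 had a lower and 4 a higher change in H460. In H1299 21 of them were called lower (median -0.16), where 9.54% of all genes were. CCNE2 changed by -0.27 in H1299 (difference -1.52, adjusted p = 8.91e-07), FAM111B by 0.20 (difference -1.57, adjusted p = 5.37e-10) and UHRF1 by 0.36 (difference -1.15, adjusted p = 1.49e-06). Opposite signs were seen in DUSP1 (-0.40 in H1299, difference 1.51, adjusted p = 6.52e-11), in ID2, an inhibitor of differentiation (0.54 in H460 and -0.92 in H1299, difference 1.46, adjusted p = 9.51e-09), and in KLF6 (0.46 in H1299, difference -1.11, adjusted p = 1.72e-08). Of the 36 immediate-early and MAPK feedback genes 11 had a lower and 2 a higher change in H460. Respiratory chain genes differed in 17 of 31 cases, proteasome genes in 15 of 28 and ribosomal protein genes in 13 of 37, each with the higher change in H460. Over all genes 6.56% had a higher change in H460. The differences in these lists were not counted under the other scalings, where their risers within H460 became fewer. In H1299 11, 8 and 9 of them were called lower and none higher. H1299 arrays also widened, from 3.58 at 0 h to 3.81 at 8 h.

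Apart from small RNA genes, the largest positive differences between the lines were those of TDO2 (1.97), the nucleosome assembly gene NAP1L2 (1.60), GAS6-AS1 (1.59), the neurofilament gene NEFL (1.56) and COX7B (1.56). NAP1L2 was at 6.19 to 6.83 (median 6.37) at 0 h and 7.24, 7.18 and 7.38 at 8 h in H460 and changed by -0.74 in H1299. NEFL was at 9.0 to 9.79 (median 9.34) at 0 h and 10.49, 10.45 and 10.45 at 8 h and changed by -0.51 in H1299. The largest negative ones were those of FAM111B, CCNE2, the xenobiotic-metabolising CYP1B1 (-1.34), the surface glycoprotein CDCP1 (-1.29) and the connexin GJC1 (-1.15). Each of these 3 fell in H460 (-0.65 ± 0.15, -0.84 ± 0.12 and -0.64 ± 0.15, adjusted p = 0.00705, 4.26e-05 and 0.00537) and had a positive change in H1299 (0.69, 0.46 and 0.51). The model with array width called 3 of these 5 genes (NEFL, CYP1B1 and CDCP1).

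**Figure D5:**
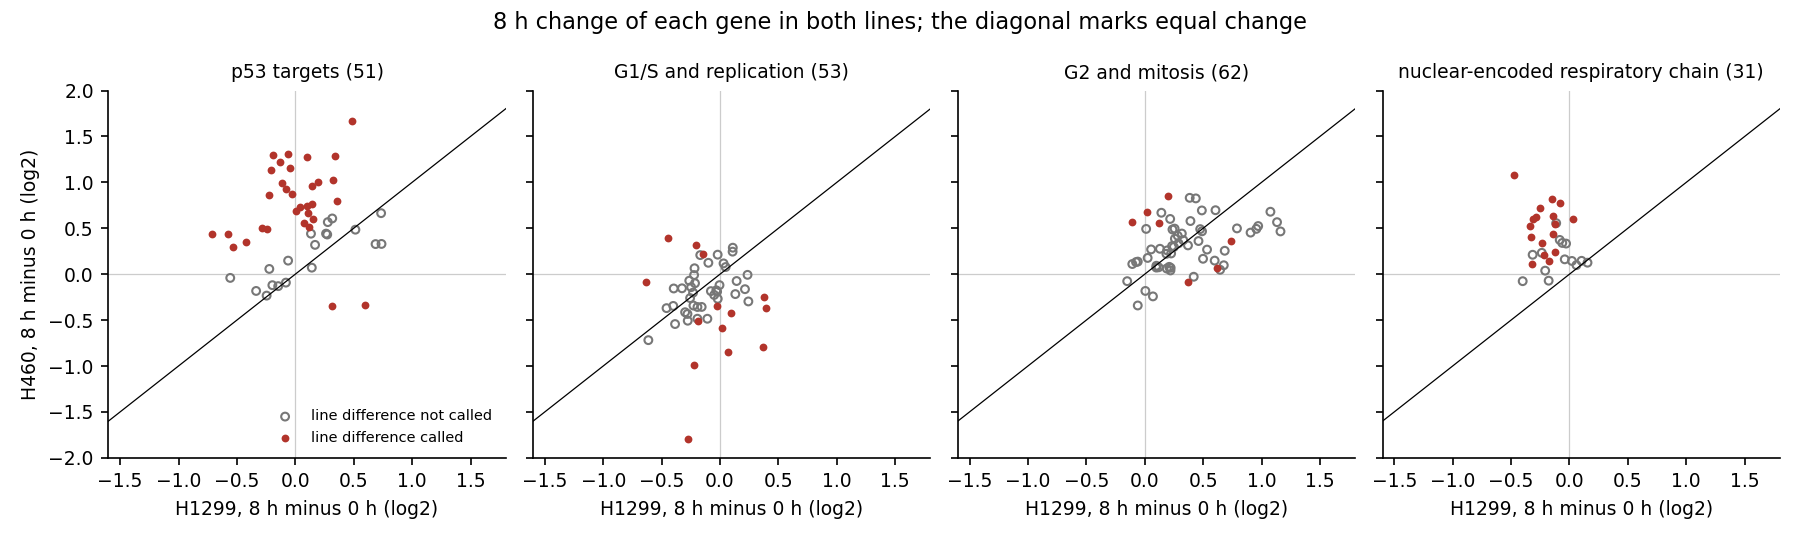
Change from 0 h to 8 h in H1299 (x, log2) against that in H460 (y, log2) for the members of 4 lists; filled red points had a called difference between the lines, open points did not, and the diagonal marks equal change. Most p53 targets (30 of 51) and 17 of 31 respiratory chain genes lie above the diagonal with a called difference. Of the mitotic genes 7 of 62 have a called difference, a share near the 10.1% of all genes.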

How the data were processed

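The deposited table holds log2 array summaries, normalized by the authors by a method not given in the sources used here. Of 32321 entries 19158 carried 1 gene symbol, 1388 several and 11775 none, and where a symbol had several entries the one with the highest mean over the 42 arrays was kept (754 left out), which gave 18404 genes without a filter on low values. Changes were contrasts from a fit of the 21 H460 arrays in which each time point had its own mean (R 4.3.3; limma 3.58.1, trended eBayes after lmFit), tested two-sided with Benjamini-Hochberg adjustment over all genes and a threshold of 0.05. The difference between the lines used all 42 arrays. Errors after ± are model standard errors unless marked SD. The number of arrays limits the precision, and nothing beyond the titles' word biological says what a replicate was.

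The 23 lists hold 768 genes, 707 of them measured, and genes without an entry are not analysed here. Some genes are not reported here. Members, lists, motifs and tests were chosen with earlier results of these data known. Named are CDKN1A and MDM2, the 15 largest rises and falls among genes called as deposited and after quantile normalization whose arrays do not overlap, up to 5 members per list with the smallest p, members of the p53, cell cycle and sterol lists whose role is described, and the 6 largest differences between the lines in each direction. Promoters shown are, for motifs of lists that changed, those of the smallest-p member holding the motif. Searches for a sterol element and an E-box were also run: 1 of 32 sterol promoters held the first (0.425% of all) and 10 of 23 ribosome biogenesis promoters the second (7.43% of all). Other settings were quantile normalization, median centring, array width as a covariate, a filter on dim genes, array weights, other eBayes settings, other sets of arrays, a replicate block and each array left out. On simulated data with 18404 genes, 3.92% of the calls at 8 h were false. The simulated arrays had independent noise in each gene and no difference in width between the groups. This share therefore does not cover calls that move with array width.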

Additional observations from a re-analysis of the deposited data

Results flagged for a closer look

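Among the 127 genes named in the results, 9 had a 0 h array of H460 standing apart from the other 5 by Dixon's gap test, where chance gives about 1 in 20. Higher than the others were DUSP1 (9.65 in replicate 6, 9.29 to 9.41 in the others), COX6C (9.74 in replicate 6, 8.65 to 9.01 in the others), PSMB3 (11.63 in replicate 6, 11.20 to 11.33 in the others), PSMB1 (10.16 in replicate 6, 9.17 to 9.42 in the others), NAP1L2 (6.83 in replicate 6, 6.19 to 6.38 in the others) and RPL14 (12.23 in replicate 6, 11.81 to 11.94 in the others). Lower were TIGAR (6.33 in replicate 1, 7.28 to 7.70 in the others), SLFN13 (4.64 in replicate 6, 5.17 to 5.30 in the others) and ANKRD1 (6.18 in replicate 1, 6.75 to 6.99 in the others). In 7 of these the array was replicate 6, the widest 0 h array, and its part in the changes was not tested beyond the values given without it.

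The 8 h change differed between the lines, by the interaction test in limma at an adjusted p under 0.05, for 85 of the named genes, against 10.1% of all genes. Many of the genes were named for their change in H460 and some for this difference itself, so the share is a description. The log2 difference (H460 minus H1299) was positive for 62: TDO2 1.97, NAP1L2 1.60, GAS6-AS1 1.59, NEFL 1.56, COX7B 1.56, DUSP1 1.51, GDF15 1.49, ID2 1.46, CENPW 1.41, RPS27L 1.37, SPATA18 1.35, TIGAR 1.34, ACTA2 1.32, EDA2R 1.20, TP53INP1 1.18, SESN1 1.17, CKS2 1.17, PLK2 1.15, CMBL 1.11, CTH 1.11, CEBPB 1.08, DDB2 1.08, MSMO1 1.02, TRIAP1 1.01, IFI44 0.97, COX6C 0.97, FAS 0.94, CYFIP2 0.90, RORA 0.90, PER2 0.85, PCNA 0.84, GADD45A 0.83, PLXNB2 0.82, PSMB1 0.81, CDKN1A 0.80, H2BC12 0.79, NSDHL 0.76, HMGCS1 0.73, POLH 0.71, TP53I3 0.69, SESN2 0.69, PTTG1 0.68, TRIM22 0.66, IL6 0.66, BORA 0.66, CDC25C 0.66, FBXO22 0.64, FADS2 0.63, CCNG1 0.63, CASP9 0.61, IDI1 0.60, PSMB3 0.57, LPIN1 0.56, PLK3 0.56, ZMAT3 0.49, SQLE 0.48, MDC1 0.48, XPC 0.45, MDM2 0.43, CCNB1 0.43, PPM1D 0.40, NEU1 0.30. It was negative for 23: MCM5 -0.32, MCM4 -0.33, TOP2A -0.38, STC2 -0.40, MCM10 -0.51, POLD3 -0.60, E2F7 -0.66, UNG -0.76, GAST -0.82, KLF11 -0.84, E2F8 -0.92, TNFRSF10A -0.93, CDCA4 -0.95, FOSL1 -0.97, SLFN13 -1.01, JUN -1.03, KLF6 -1.11, UHRF1 -1.15, GJC1 -1.15, CDCP1 -1.29, CYP1B1 -1.34, CCNE2 -1.52, FAM111B -1.57.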

How the results depend on the processing

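Of the other settings for H460 at 8 h against 0 h, quantile normalization gave 1974 calls in place of 3108, array width as a covariate 132, array weights 6979, all 42 arrays 4784, 0 h replicates 4 to 6 only 903 and 0 h replicate 6 only, a setting chosen after seeing the data that leaves 1 array at 0 h whose spread is taken from the other groups, 34. Leaving out 1 array gave 1071 to 4939 calls: 1071, 1222 and 1457 without 8 h replicate 1, 2 or 3, and 4939 without 0 h replicate 6. Median centring (3120), no filter against a filter on dim genes (3019), the variance settings of eBayes, only the 9 arrays, 0 h replicates 1 to 3 only and every entry with 1 symbol stayed within 1.5 times. For 8 h against 4 h (1126 calls) the count was 472 after quantile normalization, 12 with array width and 227 to 1126 with 1 array left out. For 12 h against 8 h (52) it was 100 with array width and 24 to 31 with 1 array left out, for the difference between the lines (1861) 1257 to 2397 and for H1299 (4524) 2865 with array width and 2628 to 4514 with 1 array left out. The cause of these moves was not tested.

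Same-numbered arrays at 0 h and 8 h, as deviations from their group means, had correlations of -0.03, 0.02 and -0.07. The titles do not say whether replicate numbers pair the arrays, and these values cannot decide it. With a replicate block the 5 counts were 3106, 1459, 46, 1414 and 3779. Of 127 named genes, 9 lost their call after quantile normalization, 70 with array width, 8 with the block and 101 against 0 h replicate 6 alone, where PCNA changed sign (-0.077), and under no other setting run did a called one change sign. With 8 h replicate 1, 2 or 3 left out, 18, 18 and 13 lost it. With 3 arrays at 8 h, the simulated test recovered 49 of 100 changes of 0.5 and 98 of 100 changes of 1 (log2). Only these genes of 18404 were changed, and an adjusted p depends on how many genes change. The recovered shares therefore need not hold for the real arrays, where 3108 genes were called.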
